A study of Mus musculus with 2 samples.

Results

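The genes described here encode subunits of the Cys-loop receptors, the ligand-gated ion channels for GABA, glycine, acetylcholine and serotonin. They were chosen by gene symbol: 39 of the 43346 Ensembl genes in the gene tables, of which 16 belong to GABA-A receptors, 5 to glycine receptors, 16 to nicotinic acetylcholine receptors and 2 to the 5-HT3 receptor. Other subunit genes of these receptors were not analysed here, so sums over a receptor cover the named genes only. The tissue was hindbrain of mouse embryos aged 13.5 days, strain B6NCrl, with male and female embryos pooled. Total RNA longer than 200 nt was extracted by the mirVana method, and 10 ng entered each of 2 libraries, numbered as biological replicates 1 and 2. Both carry 1 donor label and differ in their biosample label, so part of their spread may be technical. They form a single group with no treated or mutant counterpart, and the data allow levels, ratios between subunits and the spread between 2 libraries, but no test across conditions.

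Each Cys-loop receptor is a pentamer of related subunits around a central pore, and the subunits that assemble decide which ligand opens it and how fast it closes. GABA-A and glycine receptors conduct chloride, whereas nicotinic and 5-HT3 receptors conduct cations. In several of these receptors an embryonic subunit is replaced by another one as the animal matures: alpha2 gives way to alpha1 in glycine receptors, gamma to epsilon in the muscle nicotinic receptor, and alpha2, alpha3 and alpha5 are partly replaced by other alpha subunits in GABA-A receptors. The family takes its name from a loop closed by a pair of cysteines in the extracellular domain.

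Because the members are paralogs, their sequences bear on how reads were told apart. Each of the 39 longest coding sequences in GENCODE M21 held a Cys-loop stretch of 45 bases, found as a cysteine codon, 13 further codons and another cysteine codon, and in 38 of them the stretch lay within 1 exon. The stretches of subunits known from embryonic or mature receptors are shown here, 5′ to 3′ on the coding strand of mm10 (GRCm38). The 2 cysteine codons are in capitals. The muscle nicotinic gamma subunit Chrng (chr1:87207484-87207528, plus strand, exon 5) and epsilon subunit Chrne (chr11:70618169-70618213, minus strand, exon 5) are followed by the glycine alpha subunits Glra2 (chrX:165257125-165257169, minus strand, exon 5) and Glra1 (chr11:55533843-55533887, minus strand, exon 5). After these stand GABA-A alpha subunits that are abundant in the embryonic brain, Gabra2 (chr5:71012720-71012764, minus strand, exon 6) and Gabra5 (chr7:57452964-57453008, minus strand, exon 6). With them stand alpha subunits of the mature brain, Gabra4 (chr5:71640847-71640891, minus strand, exon 5) and Gabra6 (chr11:42317420-42317464, minus strand, exon 5). These alpha subunits were paired for the sequence comparison only, and no replacement of one by the other is meant.
Chrng: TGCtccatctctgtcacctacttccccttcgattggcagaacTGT
Chrne: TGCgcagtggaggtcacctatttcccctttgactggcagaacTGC
Glra2: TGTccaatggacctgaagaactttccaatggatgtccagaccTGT
Glra1: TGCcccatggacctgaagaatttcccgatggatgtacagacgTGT
Gabra2: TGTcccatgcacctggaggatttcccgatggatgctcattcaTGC
Gabra4: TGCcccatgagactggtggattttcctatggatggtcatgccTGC
Gabra5: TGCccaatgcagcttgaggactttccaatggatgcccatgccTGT
Gabra6: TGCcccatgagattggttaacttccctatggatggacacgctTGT

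Chrng and Chrne shared 34 of these 45 bases, Glra2 and Glra1 38, Gabra2 and Gabra4 35, and Gabra5 and Gabra6 30. Over the whole aligned coding sequence, identity was 64.4% for Chrng and Chrne and 74.2% for Glra2 and Glra1. The longest identical run between any 2 members was 81 bases, in the retinal rho subunits Gabrr1 and Gabrr2. That is shorter than the 100-base fragment length that the deposited effective lengths imply. Untranslated regions and genes outside the 39 were not compared, so this does not show that all reads could be told apart. In 38 of the 39 genes the estimated counts were whole numbers (within 0.005), and Gabra5 was the exception, with 537.93 and 650.86 counts.

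Detection here means a level of at least 1 TPM, a unit of abundance per transcript length, in each of the 2 libraries. By that rule 20 of the 39 subunit genes were detected, where 35.4% of all Ensembl genes and 62.2% of protein coding genes were. The detected genes were 9 of 16 GABA-A subunits, 3 of 5 glycine subunits, 7 of 16 nicotinic subunits and 1 of 2 5-HT3 subunits. Their levels were modest: the 39 genes summed to 224.5 and 217.3 TPM in replicates 1 and 2, or 0.0224% and 0.0217% of all TPM. The median over the members was 1.03 TPM, beside 0.115 TPM over all Ensembl genes and 5.07 TPM over protein coding genes.

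**Figure D1:**
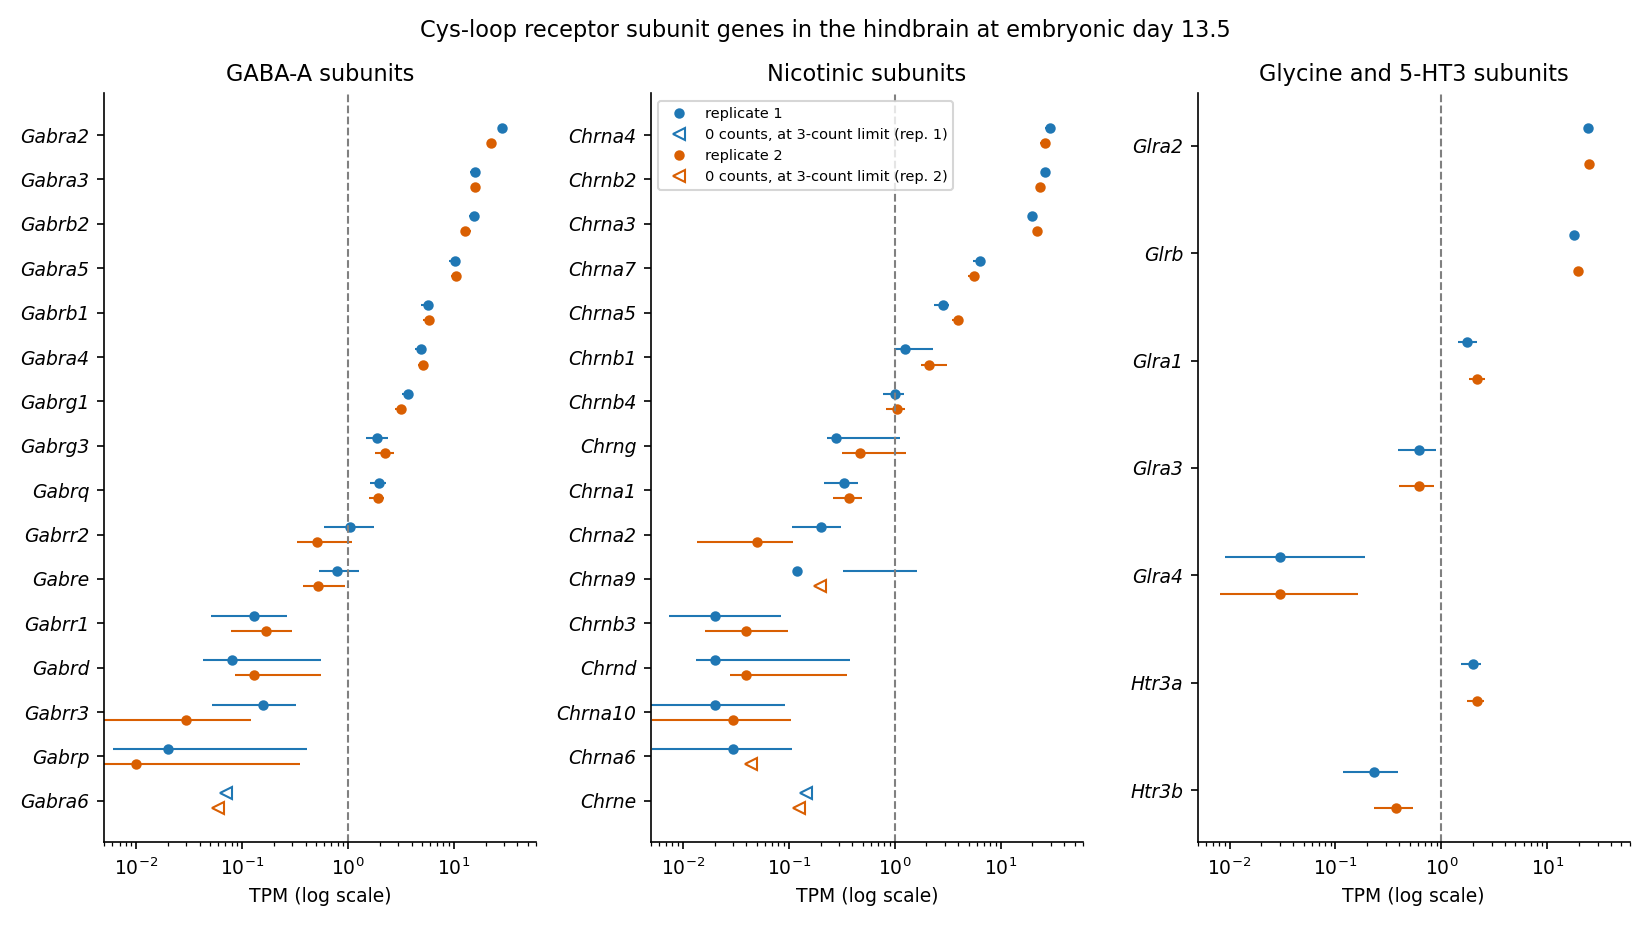
TPM (log axis) of each subunit gene in replicate 1 (blue) and replicate 2 (orange), with the deposited credibility interval as a line; open triangles stand at the limit that 3 counts would give where a library held 0 counts, and the dashed line marks 1 TPM. Of the 39 genes, 20 lie at or above the dashed line in both libraries, and Chrna9 has an interval (0.329 to 1.63 TPM in replicate 1) that does not hold its TPM of 0.12.

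The top of the order was shared by 3 receptor types. Chrna4 (mean 27.8 ± 1.83 TPM, SD, n = 2), Gabra2 (25.5 ± 4.02), Chrnb2 (24.9 ± 1.63) and Glra2 (24.4 ± 0.587) came first, and no neighbours among these 4 were separated by their range over the libraries. Chrna3 (21.1 ± 1.60 TPM), Glrb (18.5 ± 1.10), Gabra3 (16.0 ± 0.0849), Gabrb2 (14.2 ± 1.85) and Gabra5 (10.3 ± 0.177) followed, each apart from its neighbours. Among the 19 neighbouring pairs of the 20 detected genes, 10 were apart in this sense. With 2 libraries, such a range is a weak measure of spread.

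GABA-A receptors are the main receptors of fast inhibition in the mature brain, and their alpha subunits set where in the neuron and how strongly GABA acts. Gabra2 (chr5:70957597-71095849), the alpha2 subunit of synaptic receptors, reached 28.4 TPM in replicate 1 and 22.7 TPM in replicate 2, on 1344 and 1269 estimated counts. Gabra3 (chrX:72432681-72656848), typical of monoaminergic neurons and of the embryonic cortex, stood at 16.1 and 15.9 TPM. Both lay above every other alpha subunit measured, in each library. Gabra5 (chr7:57407672-57510059), which forms mostly extrasynaptic receptors, was at 10.2 and 10.5 TPM. Gabra4 (chr5:71569749-71658308), which pairs with the delta subunit in the mature forebrain, was lower, at 4.93 and 5.15 TPM. Gabra6 (chr11:42306437-42321072), the alpha subunit of mature cerebellar granule cells, held 0 counts in both libraries, where 3 counts would be 0.0707 and 0.0599 TPM, the upper limits.

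The embryonic alpha subunits therefore outweighed the late ones. Gabra2, Gabra3 and Gabra5 summed to 54.6 and 49.1 TPM in replicates 1 and 2, and Gabra4 and Gabra6 to 4.93 and 5.15 TPM. The log2 ratio, with a pseudocount of 0.1 TPM added to each sum, was 3.34 ± 0.153 (SD, n = 2), with 3.44 in replicate 1 and 3.23 in replicate 2. The ratio has 1 weak point: the authors' annotation holds a single model of Gabra2, a transcript of 2392 nt that the later annotation M21, with 6 models of the gene, classes as a target of nonsense-mediated decay. All 1344 and 1269 counts were assigned to it, and with only protein coding transcripts summed, which removes Gabra2, the log2 ratio was 2.23. All 6 granule cell lineage markers were detected while Gabra6 was at 0, beside 62.2% of protein coding genes. They summed to 115.8 and 139.1 TPM, from Neurod1 (41.3 and 43.6 TPM) down to Atoh1 (6.35 and 16.4 TPM). Which cells carried the marker transcripts was not tested. In bulk tissue, fewer cells of a type and less RNA per cell cannot be told apart.

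**Figure D2:**
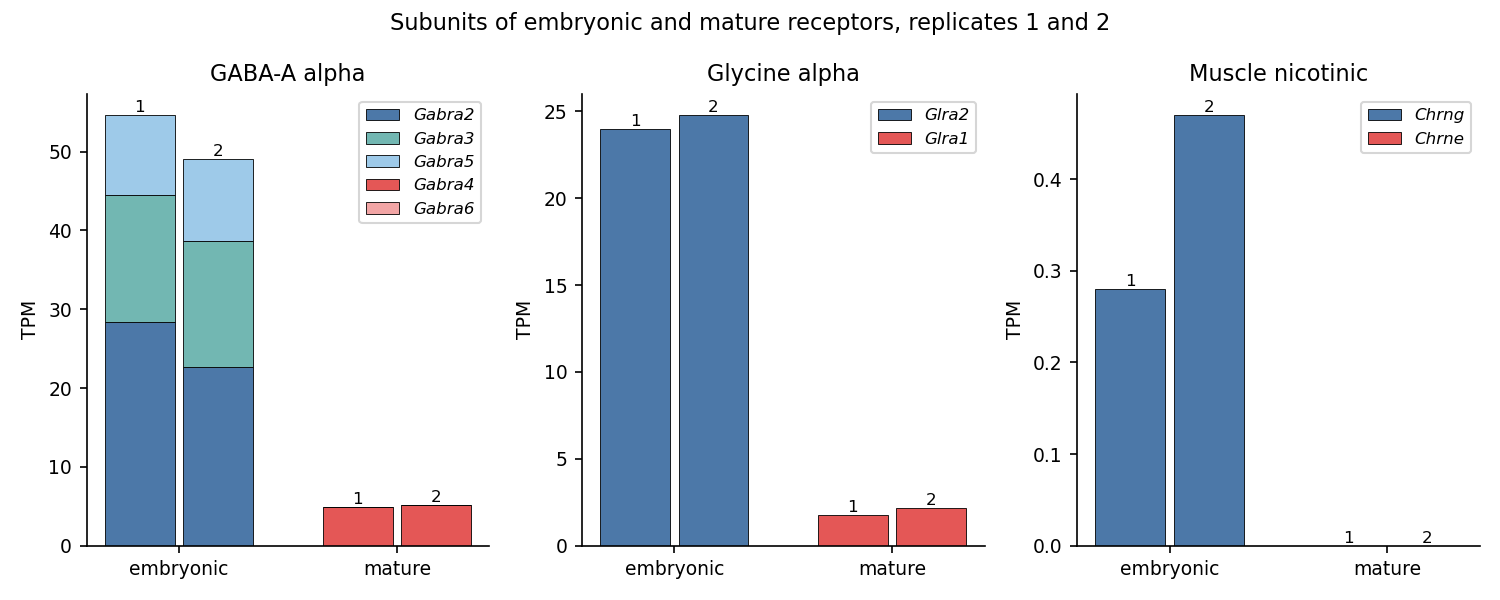
Level in TPM (linear axes from 0, a different scale in each panel) of subunits known from embryonic and from mature receptors, with 1 bar for replicate 1 and 1 for replicate 2 and the genes of a class stacked. In the GABA-A and glycine panels the embryonic bars (54.6 and 49.1 TPM, 24.0 and 24.8 TPM) stand above the mature ones in both libraries, whereas the muscle panel ends below 0.5 TPM.

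Beta subunits complete the GABA binding site together with alpha subunits. Gabrb2 (chr11:42419757-42629028) was at 15.5 and 12.9 TPM and Gabrb1 (chr5:71658113-72149037) at 5.67 and 5.81 TPM in replicates 1 and 2. Gabrb2 was the higher in both libraries, and the log2 ratio of Gabrb1 over Gabrb2 was -1.29 ± 0.212 (SD, n = 2). Gabrb2 lies 98.7 kb from Gabra6 on chromosome 11, in opposite orientation, so a gene at 0 counts and one above 12 TPM are neighbours there.

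Gamma subunits give the receptor its benzodiazepine site, and the delta subunit takes their place in extrasynaptic receptors of the mature brain. Gabrg1 was measured at 3.73 and 3.20 TPM and Gabrg3 at 1.88 and 2.25 TPM. Gabrd (chr4:155384980-155398112), the delta subunit, held 3 counts in replicate 1 and 6 in replicate 2, or 0.08 and 0.13 TPM. The 2 gamma subunits together exceeded Gabrd by a log2 ratio of 4.79 ± 0.279 (SD, n = 2, pseudocount 0.1). Without a pseudocount this was 70.1-fold in replicate 1, where the 95% Poisson interval of the 3 Gabrd counts (0.619 to 8.77) gives a range of 24.0 to 340.0-fold, and 41.9-fold in replicate 2, with a range of 19.3 to 114.2-fold. These ranges cover counting error only. Of the Gabrg3 level, 49.6% and 59.6% was assigned to a transcript with a retained intron, on 26.9 and 45.6 counts.

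The remaining GABA-A subunits are rare classes. Gabrq, the theta subunit of brainstem monoaminergic nuclei, was the only one detected, at 1.97 and 1.91 TPM. Gabre, the epsilon subunit, reached 0.79 and 0.52 TPM, with 51.2% and 61.3% assigned to a retained-intron transcript, and Gabrp, the pi subunit of reproductive epithelia, was at 0.02 and 0.01 TPM on 1 count in each library. Among the rho subunits, which are best known from the retina, Gabrr2 passed 1 TPM in replicate 1 only (1.06 and 0.51 TPM on 18 and 14 counts). Gabrr1 was at 0.13 and 0.17 TPM and Gabrr3 at 0.16 and 0.03 TPM.

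Glycine receptors carry fast inhibition in the brainstem and spinal cord. Glra2 (chrX:165129017-165327393), the fetal alpha subunit, reached 24.0 TPM in replicate 1 and 24.8 TPM in replicate 2, on 1510 and 1845 counts. Glra1 (chr11:55514238-55608198), the adult alpha subunit whose loss causes startle disease, reached 1.75 and 2.16 TPM on 83 and 121 counts. Glra2 was thus 13.7-fold above Glra1 in replicate 1 and 11.5-fold in replicate 2. The deposited intervals of the genes were far apart, from 22.2 TPM up for Glra2 and up to 2.59 TPM for Glra1, and the log2 ratio was 3.58 ± 0.170 (SD, n = 2). Glra1 was nonetheless detected at this age in both libraries, all of it assigned to 1 of its 3 models, which are all protein coding.

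Glrb (chr3:80843599-80913660), the beta subunit that ties the receptor to the scaffold protein gephyrin, was at 17.8 and 19.3 TPM. It was lower than Glra2 in both libraries and well above Glra1. A protein coding transcript of 3029 nt carried 89.5% and 79.6% of the Glrb level. Glra3, the alpha subunit of spinal dorsal horn neurons, stood at 0.61 TPM in both libraries on 24 and 28 counts, below the detection rule. Glra4 held 1 count in each library, assigned to a retained-intron transcript.

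Nicotinic receptors of the brain and of ganglia are built from alpha and beta subunits that differ from those of muscle. Chrna4 (chr2:181018380-181043546) and Chrnb2 (chr3:89746195-89764632) form the most common high-affinity receptor of the brain. Chrna4 was at 29.1 and 26.5 TPM, and Chrnb2 at 26.02 and 23.72 TPM. Both were slightly higher in replicate 1. For Chrna4, 75.8% and 73.1% of the level was a protein coding transcript of 4565 nt, while a processed transcript of 712 nt was given 6.70 and 6.78 TPM on 84.9 and 101.5 counts. Chrnb2 shares 1365 exon bases with Adar, an RNA editing gene on the opposite strand at 20.8 and 17.9 TPM. The estimated counts of Chrnb2 were whole numbers (2840 and 3058), so they show no fractional sharing of reads. Since the strand setting of the counting is not given in the sources used here, which gene received the reads of that stretch is uncertain.

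Chrna3, Chrna5 and Chrnb4 lie side by side within 67.9 kb on chromosome 9 and encode the receptor of autonomic ganglia, which is also found in some brain nuclei. Chrna3 (chr9:55010111-55026562), its ligand-binding alpha subunit, was at 19.9 and 22.2 TPM. Chrna5, an accessory subunit, was at 2.86 and 3.99 TPM, and Chrnb4, the beta partner, at 1.01 and 1.05 TPM. The 3 neighbours thus differed widely, with Chrna3 about as high as the central subunits and Chrnb4 close to the detection limit, which its deposited interval (0.775 to 1.23 TPM in replicate 1) includes. Chrna4 and Chrnb2 together exceeded the 3 clustered genes 2.32-fold in replicate 1 and 1.84-fold in replicate 2, a log2 ratio of 1.04 ± 0.231 (SD, n = 2).

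Chrna7, the subunit of the fast, calcium-permeable homomeric receptor, was at 6.39 and 5.66 TPM. The other neuronal subunits were not detected. Chrna2, found in a subset of interneurons, had 0.20 and 0.05 TPM on 14 and 4 counts. Chrna6 and Chrnb3, known from dopaminergic and visual pathways, had at most 0.04 TPM. Chrna9 and Chrna10, the receptor subunits of cochlear hair cells, had at most 0.12 TPM, with 0 counts of Chrna9 in replicate 2 (up to 0.198 TPM allowed). Of 6 hair cell markers 4 were detected, a share near the 62.2% of protein coding genes, and the 6 summed to 46.3 and 36.9 TPM. Those detected were Myo6 (15.7 and 15.9 TPM), Myo7a (14.9 and 13.9 TPM), Lhx3 (12.5 and 4.26 TPM) and Otof (1.67 and 1.93 TPM). Pou4f3 was at 1.52 and 0.89 TPM and Gfi1 at 0.04 and 0 TPM. Some neurons of the hindbrain are known to express Lhx3 as well.

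The muscle receptor of the embryo contains the subunits alpha1, beta1, delta and gamma, and epsilon replaces gamma at the mature neuromuscular junction. Chrng (chr1:87204657-87212694) held 9 counts in replicate 1 and 15 in replicate 2, or 0.28 and 0.47 TPM. Chrne (chr11:70614883-70619216) held 0 counts in both, which allows up to 0.146 and 0.124 TPM. Set against those limits, the listed Chrng level was 1.91-fold in replicate 1 and 3.79-fold in replicate 2. Over the 95% Poisson interval of the Chrng counts this ran from 0.875 to 3.63-fold and from 2.12 to 6.26-fold, so in replicate 1 the depth does not separate the genes. The deposited Chrne intervals reach 0.557 and 0.471 TPM, no lower than the listed Chrng levels. The log2 ratio with a pseudocount of 0.1 was 2.22 ± 0.414 (SD, n = 2), and it fell to 0.46 with a pseudocount of 1, so its size is set by the pseudocount. Chrna1 had 0.33 and 0.37 TPM on 29 and 39 counts and Chrnd 0.02 and 0.04 TPM on 1 and 3 counts. Only Chrnb1 met the detection rule among the 5 muscle subunits, at 1.25 and 2.11 TPM on 35 and 85 counts.

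Some muscle markers were detected beside these low levels. Of 11 skeletal muscle markers 5 were detected, where 62.2% of protein coding genes were. The list summed to 55.5 and 67.3 TPM, most of it from Actc1 (36.4 and 41.7 TPM), while Myf6 was at 0 in both libraries. The part of muscle tissue in the levels of Chrna1, Chrnb1, Chrnd and Chrng was not tested. Rapsn, the scaffold that clusters the muscle receptor, was at 1.29 and 0.80 TPM, below the rule in replicate 2.

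The start regions of Chrng and Chrne are printed because the mature gene of this pair had no counts. The windows are from RefSeq (GRCm38.p6), 250 bases before to 50 after the annotated start, 5′ to 3′ on the gene's strand: Chrng at chr1:87205561-87205860 (plus) and Chrne at chr11:70619145-70619444 (minus). Capitals mark matches on either strand to the E-box CANNTG, the motif of myogenic helix-loop-helix factors, and to the N-box CCGGAA, known from genes of the neuromuscular junction.
Chrng: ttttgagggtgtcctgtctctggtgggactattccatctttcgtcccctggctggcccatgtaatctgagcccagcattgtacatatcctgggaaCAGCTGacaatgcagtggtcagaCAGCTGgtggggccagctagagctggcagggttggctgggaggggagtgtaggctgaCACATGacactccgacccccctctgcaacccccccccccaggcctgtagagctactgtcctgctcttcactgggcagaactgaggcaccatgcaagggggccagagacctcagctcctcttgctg
Chrne: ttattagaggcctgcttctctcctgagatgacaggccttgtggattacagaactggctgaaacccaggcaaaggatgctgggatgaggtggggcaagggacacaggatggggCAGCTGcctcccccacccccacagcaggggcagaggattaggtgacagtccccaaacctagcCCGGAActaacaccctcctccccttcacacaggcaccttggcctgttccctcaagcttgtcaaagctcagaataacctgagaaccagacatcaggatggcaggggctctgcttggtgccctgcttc

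Chrng held 3 E-boxes and no N-box, and Chrne 1 of each. E-box letters were common, in 72.3% of all 32851 RefSeq windows and in 25 of the 37 windows of the members, whereas N-box letters stood in 14.9% of all windows and in 2 of the members' windows, Chrne and Gabrg1. These are matches of letters and show nothing of binding.

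CG dinucleotides were counted in the same windows. Windows were matched by symbol for 32 of the 39 genes; Chrna2, Chrna6, Chrnb3, Chrnd, Gabrd, Glra1 and Htr3a had no entry. Taking the window with the most CG per gene, the 18 detected genes had a median of 15.5 CG (0 to 35) and the 14 others a median of 3 (1 to 24), beside 8 over all 27025 genes counted in that way. Several windows existed for 4 members, all detected, whose other windows held 5 CG (Chrna5), 9 (Gabrb1), 9 (Gabrb2) and 0 (Gabra3). Exceptions ran both ways: Gabra3 had 0 CG at a mean of 16.0 TPM, and Gabre had 24 CG at 0.655 TPM. For comparison with the muscle genes, the window of Chrnb2 (chr3:89764583-89764882, minus), a subunit among the highest, is given with its 12 CG in capitals.
Chrnb2: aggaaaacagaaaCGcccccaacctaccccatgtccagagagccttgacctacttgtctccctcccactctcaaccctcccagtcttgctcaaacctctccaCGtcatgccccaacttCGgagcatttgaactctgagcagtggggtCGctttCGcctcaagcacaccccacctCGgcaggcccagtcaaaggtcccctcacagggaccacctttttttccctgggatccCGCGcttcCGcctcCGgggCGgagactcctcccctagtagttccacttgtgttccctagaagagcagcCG

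**Figure D3:**
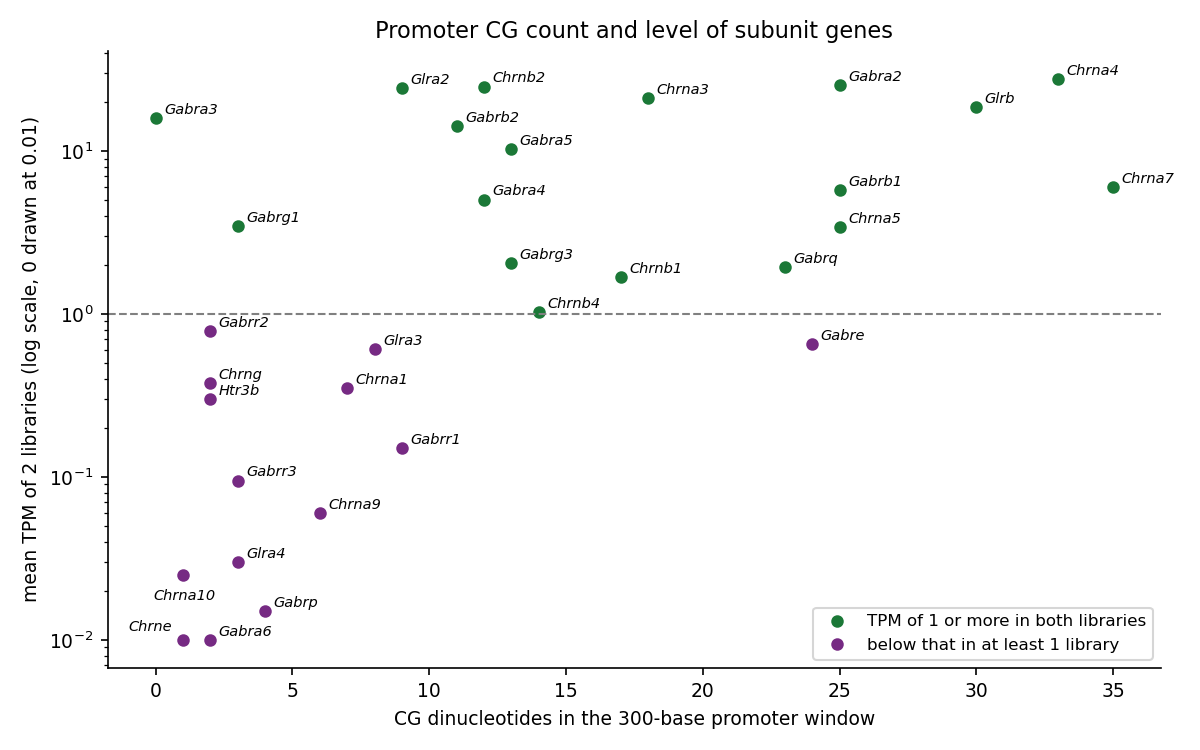
Mean TPM of the 2 libraries (log axis, a mean of 0 drawn at 0.01) against the number of CG dinucleotides in the 300-base RefSeq window of each of 32 subunit genes, taking the window with the most CG; green points are genes at 1 TPM or more in both libraries. Most points below the dashed line at 1 TPM lie at 9 CG or fewer, with Gabre at 24 as the exception, and Gabra3 stands high at 0.

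5-HT3 receptors need the A subunit, and the B subunit changes their conductance. Htr3a was at 1.98 and 2.15 TPM on 81 and 104 counts, and its neighbour Htr3b, 23.9 kb away on chromosome 9, at 0.23 and 0.37 TPM on 11 and 21 counts. Htr3a was the higher in both libraries, 8.61-fold in replicate 1 and 5.81-fold in replicate 2. The log2 ratio with a pseudocount of 0.1 was 2.46 ± 0.281 (SD, n = 2).

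Many subunit genes lie near one another, and levels within such a cluster were often unequal. With genes joined across gaps of up to 1000 kb, 24 of the 39 members fell into 10 clusters. These are set by distance alone, and a common origin was not tested. On chromosome 5, Gabrg1, Gabra2, Gabra4 and Gabrb1 span 1398 kb and all 4 were detected, from 3.47 TPM (Gabrg1) to 25.5 TPM (Gabra2) on average. Gabrg3 and Gabra5 on chromosome 7 were both detected, as were the 3 genes of the Chrna5 cluster. No gene was detected in 3 clusters: Chrnd with Chrng, Gabrr2 with Gabrr1, and Chrnb3 with Chrna6. The remaining 4 clusters held both detected and undetected genes, as with Gabrb2 and Gabra6 or Gabra3, Gabrq and Gabre on the X chromosome. Another of the 4 joins Chrnb1 and Chrne, which lie 818.9 kb apart.

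**Figure D4:**
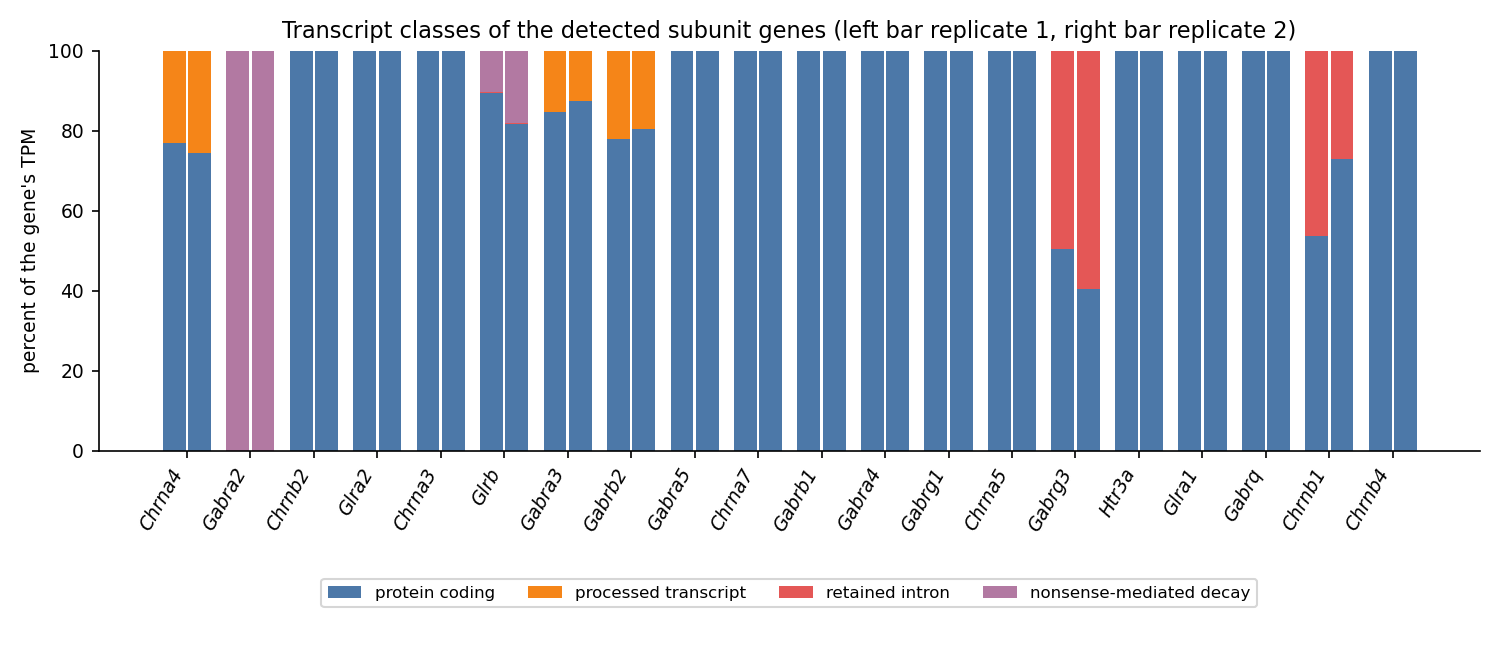
Percent of each detected gene's TPM assigned to transcripts of 4 annotated classes (GENCODE M21), left bar replicate 1 and right bar replicate 2, genes in order of mean level. Most genes are protein coding throughout, but these had only protein coding models in the deposited tables. Their share was thus fixed by the annotation and is no measure of transcript use. Gabra2 rests on 1 model classed as nonsense-mediated decay, and Gabrg3 (49.6% and 59.6%) and Chrnb1 have large retained-intron shares.

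The genes that anchor and assemble these receptors were mostly present. Of 23 such genes 21 were detected, beside 35.4% of all genes and 62.2% of protein coding genes, the class of all 23. The highest were the trafficking proteins Gabarap (548.6 and 578.5 TPM), Gabarapl2 (386.8 and 401.8 TPM) and Gabarapl1 (149.1 and 145.1 TPM). Gphn, which encodes the gephyrin scaffold of inhibitory synapses, was at 29.1 and 28.7 TPM. That was above Glra2 (24.0 and 24.8 TPM) and Gabra2 (28.4 and 22.7 TPM) in both libraries. The lowest of those detected was Lynx1, a toxin-like inhibitor of nicotinic receptors, at 1.5 and 1.42 TPM. Rapsn and Musk were the genes not detected, Musk at 0.08 and 0.20 TPM. Both belong to the neuromuscular junction, but other junction genes of the list were detected. These were Agrn (107.8 and 97.6 TPM), Lrp4 (3.47 and 4.07 TPM) and Dok7 (3.23 and 4.01 TPM).

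The tissue label was checked with marker lists, to be read beside the 62.2% of protein coding genes detected. All 7 hindbrain markers were detected (417.3 and 429.0 TPM in sum), from Hoxb3 (9.50 and 11.5 TPM) to Meis1 (172.8 and 173.3 TPM), and of 7 forebrain markers 2 were, Neurod6 (50.9 and 65.0 TPM) and Dlx5 (1.56 and 1.04 TPM), with Emx1 lowest at 0.07 and 0.04 TPM. All 7 markers of postmitotic neurons were detected, from Rbfox3 (43.8 and 44.4 TPM) to Tubb3 (1543 and 1475 TPM), and 5 of 6 markers of cranial motor neurons, led by Isl1 (42.4 and 35.1 TPM), with Mnx1 at 0.25 and 0.39 TPM. All 8 sensory ganglion markers were detected, from Scn10a (1.16 and 1.38 TPM) to Pou4f1 (68.2 and 67.5 TPM); Isl1 is on both lists, and hindbrain neurons are known to express several of the others, such as Tlx3 and Prrxl1. The libraries held 33080194 and 38756411 estimated counts.

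The libraries were compared gene by gene by a two-sided exact binomial test of the counts, adjusted over all 19687 genes with 10 or more counts in the pair. The test compares 2 libraries of 1 group against counting error alone. Of the 28 members tested 7 differed at an adjusted p below 0.05, where 12.6% of all genes did. At an unadjusted p below 0.05 there were 8. The 3 higher in replicate 2 stand beside 7.07% of all genes and the 4 lower beside 5.49%. The median log2 ratio of replicate 2 over replicate 1 was 0.06 over the members and 0.00 over all genes. The deposited TPM intervals of the libraries did not overlap for 4 of the 28, beside 8.08% of all genes with 10 or more counts in the pair: Gabra2, Chrna3, Chrna5 and Chrnb2.

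The 4 genes lower in replicate 2 were among the most abundant subunits. As a ratio of scaled counts, replicate 2 over replicate 1, Gabra2 was at 0.811-fold (exact binomial test, adjusted p = 3.81e-06), Gabrb2 0.882-fold (adjusted p = 0.0417), Chrna4 0.891-fold (adjusted p = 0.00265) and Chrnb2 0.925-fold (adjusted p = 0.0264). Of the 7 postmitotic neuron markers 3 were lower in replicate 2 and none higher, beside 5.49% and 7.07% of all tested genes. The 3 were Tubb3, Stmn2 and Gap43, with log2 ratios of -0.0446, -0.0414 and -0.0595. Those of the 4 subunit genes were larger in size, from -0.303 (Gabra2) to -0.113 (Chrnb2). The marker list summed to 3834 and 3666 TPM. The part of these markers in the subunit differences was not tested.

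The 3 genes higher in replicate 2 were nicotinic. By the same ratio of scaled counts, Chrnb1 was at 2.07-fold (35 and 85 counts, exact binomial test, adjusted p = 0.00273). In TPM it stood at 1.25 and 2.11, with overlapping deposited intervals and with its protein coding transcript at 53.6% of the level in replicate 1 and 72.6% in replicate 2. The count ratio was 1.41-fold for Chrna5 (exact binomial test, adjusted p = 0.00867) and 1.13-fold for Chrna3 (adjusted p = 0.0144). Their cluster neighbour Chrnb4 was at 1.05-fold and did not pass (adjusted p = 0.935). Among all tested genes 7.07% were higher in replicate 2 and 5.49% lower. Of 10 muscle markers tested 5 were higher in replicate 2 and none lower, Myh8 being at 0.69 and 1.99 TPM. Of 8 sensory ganglion markers 3 were higher and none lower, with sums of 239.5 and 261.7 TPM. Other lists did so too: 4 of 6 granule cell lineage markers and 3 of 7 hindbrain markers were higher and none lower. The cranial motor neuron and forebrain lists each had 1 higher and none lower. In the other direction, 3 of 7 postmitotic neuron markers and 2 of 5 hair cell markers tested were lower and none higher. The part of muscle, ganglion or any other tissue in the differences of Chrnb1, Chrna3 and Chrna5 was not tested. Chrna2 had the lowest ratio among the tested members, 0.266-fold on 14 and 4 counts, and did not pass (adjusted p = 0.0621).

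**Figure D5:**
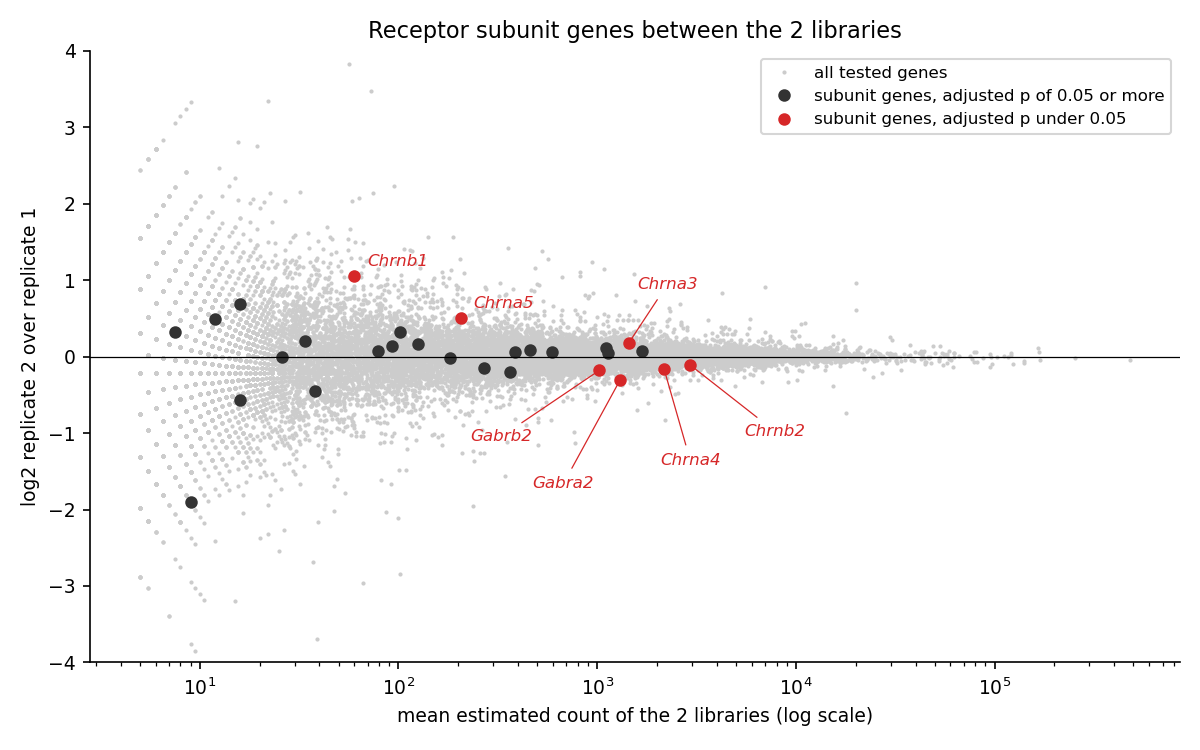
Log2 ratio of replicate 2 over replicate 1, scaled by effective library size, against the mean estimated count (log axis) for all tested genes (grey) and the 28 tested subunit genes (black, or red where the adjusted p of the exact binomial test was below 0.05). Of the 7 red points Chrnb1, Chrna5 and Chrna3 lie above 0 and Gabra2, Gabrb2, Chrna4 and Chrnb2 below it.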

How the data were processed

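The 39 subunit genes and all lists were chosen with earlier results of these data known. The authors deposited, per library, gene and transcript tables with estimated counts (expected counts), TPM values, a posterior mean TPM, bounds of a TPM credibility interval of unstated level, effective lengths and, per transcript, the percent of its gene's TPM. Notes deposited beside the files name the assembly mm10 and GENCODE annotation M4. The aligner and counting program are not given in the sources here, nor is the strand setting. Of 69691 rows, 26345 are not Ensembl genes and entered no comparison. Names and coordinates came from GENCODE M21 on GRCm38 (42462 genes matched, 884 did not).

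Ratios used log2(TPM + 0.1), which understates differences of low genes where both genes have counts. For Chrng over Chrne, where Chrne had none, it gave 2.22, above the 1.43 obtained with Chrne at the limit of 3 counts. A count of 0 was given the limit of 3 counts; limits and 95% Poisson intervals cover counting error only, and without molecular identifiers reads may repeat 1 molecule. Estimated counts were rounded for the binomial test (SciPy 1.17.1, two-sided, Benjamini-Hochberg at 0.05), with TMM library sizes from edgeR 4.0.16 in R 4.3.3, since 1 group of 2 libraries allows no quasi-likelihood test. Size factors of DESeq2 1.42.0 were an alternative. Coding sequences were aligned with Biopython 1.88. All members are accounted for, and values are given for those detected, in a ratio, called between the libraries or completing a receptor type. Of the anchoring list, the 3 highest, the lowest detected, Gphn and Rapsn are named, and of each marker list the highest and lowest. A few others were chosen after their values were seen (Musk, Agrn, Lrp4, Dok7, Myo7a, Lhx3, Otof, Pou4f3, Myh8, Dlx5). Exons shared with a gene on the opposite strand were found for 7 members (Chrna10, Chrnb2, Gabra4, Gabra5, Gabrb1, Gabrr3 and Glra1), whose counts are uncertain there.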

Additional observations from a re-analysis of the deposited data

How the results depend on the processing

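Of the 60 alternatives tried, 14 moved a ratio by more than its SD over the libraries or a count by over 1.5 times, and none changed the sign of a ratio. With a pseudocount of 1, the log2 ratios were 0.46 for Chrng over Chrne, 3.11 for Glra2 over Glra1, 3.13 for early over late GABA-A alpha, 2.56 for gamma over delta and 1.24 for Htr3a over Htr3b. With none, they were 1.43 for Chrng over Chrne, 5.76 for gamma over delta and 2.82 for Htr3a over Htr3b. The posterior mean TPM gave 1.24 for Chrng over Chrne and 3.89 for gamma over delta. Protein coding transcripts alone gave 2.23 for early over late GABA-A alpha, 4.46 for gamma over delta and -0.95 for Gabrb1 over Gabrb2. Each library alone gave 1.93 to 2.51 for Chrng over Chrne, 3.46 to 3.70 for Glra2 over Glra1, 3.23 to 3.44 for early over late GABA-A alpha, 4.59 to 4.99 for gamma over delta, -1.44 to -1.14 for Gabrb1 over Gabrb2, 0.88 to 1.21 for Chrna4 and Chrnb2 over Chrna3, Chrna5 and Chrnb4, and 2.26 to 2.66 for Htr3a over Htr3b. The number of members detected ran from 14 (TPM of 2) to 23 (TPM of 0.5), with 17 from protein coding transcripts and 20 to 21 in each library alone; for anchoring and assembly genes it ran from 20 to 22, and 21 to 22 in each library alone. Of the 7 members that differed between the libraries, 4 had disjoint deposited intervals, 6 passed without a count filter (Gabrb2 did not) and all 7 passed with the other library scalings. No paired analysis was possible because the libraries form 1 group. Depth limits the ratios that rest on Gabrd and Chrng (3 to 15 counts) and on Htr3b (11 and 21 counts).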

Other observations

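The deposited intervals surround the posterior mean and can lie away from the TPM of a gene with few reads. Chrna9 was listed at 0.12 TPM on 3 counts in replicate 1 and at 0 TPM in replicate 2, with intervals of 0.329 to 1.63 TPM and 0.200 to 1.23 TPM, and it has 7 transcript models in the deposited tables. Chrne, at 0 counts in both libraries, had an interval of 0.0400 to 0.557 TPM in replicate 1. Over the 39 genes, log2(TPM + 1) of replicate 1 and of replicate 2 had a Pearson r of 0.995, a description across genes of libraries that share tissue, protocol and annotation.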
